A study of Mus musculus with 18 samples.

Results

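Lung metastases that carried much RNA of the conducting airway were compared with metastases that carried almost none. The 18 lesions of the series were ranked by the deposited log2 normalized level of Scgb1a1, the secretoglobin that club cells release into the airway lining. The 6 lesions with the highest level are called airway-rich here and the 6 with the lowest airway-poor, so 12 of 18 lesions were compared and the middle 6 were left out. Because the sides were chosen on measured values of Scgb1a1, that gene is only described, and genes of the same airway cells were bound to differ with it. Their values and tests say which transcripts came along with Scgb1a1 and by how much, and they are not independent evidence that the sides differ in airway RNA.

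The lesions were metastases of AT3, a carcinoma line that goes back to a mammary tumour of an MMTV-PyMT mouse, here carrying GFP and mCherry. AT3 cells put into the mammary fat pad reached the lungs on their own. All hosts lacked Il2rg together with Rag2 according to the strain label, or with Rag1 according to the growth protocol. On day 11 the mice received buffer (Ctrl, 3 mice named KO1, KO2 and KO3) or 60000 activated mouse NK cells by vein (NK transferred, 2 mice named NK1 and NK2). Fluorescent lesions were cut from frozen lung sections by laser, and 2 ng of RNA per lesion was sequenced. A lesion is written as mouse and lesion number, so that KO1-3 is lesion 3 of mouse KO1. A captured region can hold tumour cells together with the lung tissue around or inside them, and fewer cells of a type and less RNA per cell cannot be told apart in such samples.

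Mouse conducting airways are lined mainly by club cells and ciliated cells. Club cells secrete secretoglobins and antimicrobial proteins and hold the enzymes that oxidize inhaled chemicals. Ciliated cells are made under the transcription factor Foxj1 together with factors of the RFX family, and carry motile cilia whose beat is driven by dynein arms on the microtubules of the axoneme.

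Each side held 4 lesions of control mice and 2 lesions of mice with NK cells. Mouse KO1 had 3 airway-rich lesions and 1 airway-poor lesion, and NK2 had 1 and 2. KO2 had 0 airway-rich and 3 airway-poor lesions, while KO3 and NK1 each had 1 airway-rich and 0 airway-poor lesions. With the mouse in the model, only KO1 and NK2, with 7 lesions between them, inform the difference between sides. Within KO1 it rests on KO1-4 as the single airway-poor lesion, and within NK2 on NK2-1 as the single airway-rich lesion.

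Scgb1a1 (chromosome 19, 9083636 to 9087958 on GRCm38) lay between 12.88 and 15.78 on the deposited log2 scale in the airway-rich lesions and between 4.33 and 5.07 in the airway-poor lesions. At the upper limit KO1-1 was just inside at 12.88 and NK1-1 just outside at 12.87. At the lower limit NK2-4 was inside at 5.07 and KO2-3 outside at 5.20. The upper boundary therefore separated a pair of nearly equal lesions, and the next lesion, KO3-2, stood at 8.98. As CPM (counts relative to a library size scaled by the TMM method, in units of 1000000 counts), Scgb1a1 reached 24373 in NK1-3, 15193 in KO3-1, 3881 in KO1-3, 2548 in KO1-2, 2349 in NK2-1 and 1889 in KO1-1. The 6 airway-poor lesions ranged from 0.210 to 1.18 CPM, with 47 counts among them against 257300 in the airway-rich lesions.

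Libraries held 2964241 to 11798853 counts and 12.1% to 68.7% of the counts of a lesion fell on the mitochondrial ribosomal RNA mt-Rnr2. Depth was lower and this share higher on the airway-rich side, without passing the test. The n here counts lesions, some of which share a mouse, and the permutation ignored this. These p-values therefore do not hold with mice as the unit, and the direction of the error is not known. The total count was 6959320 ± 2451490 (SD, n = 6) in airway-rich and 9380740 ± 1603660 (n = 6) in airway-poor lesions (exact permutation test, two-sided, p = 0.0779, adjusted over 3 measures 0.117). The mt-Rnr2 share was 35.3% ± 17.2 against 19.5% ± 6.62 (exact permutation p = 0.0628, adjusted 0.117). The number of genes with a count was 17112 ± 2226 against 17309 ± 708 (exact permutation p = 0.851, adjusted 0.851). Leaving out each lesion in turn gave adjusted exact permutation p of 0.0877 to 0.208 for the mt-Rnr2 share, except 0.039 without NK2-1. NK1-3, the lesion with the highest Scgb1a1, was the shallowest of all with 2964241 counts and had 52.0% of them on mt-Rnr2. Its part in the results was not tested beyond leaving it out, which is given below.

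**Figure D1:**
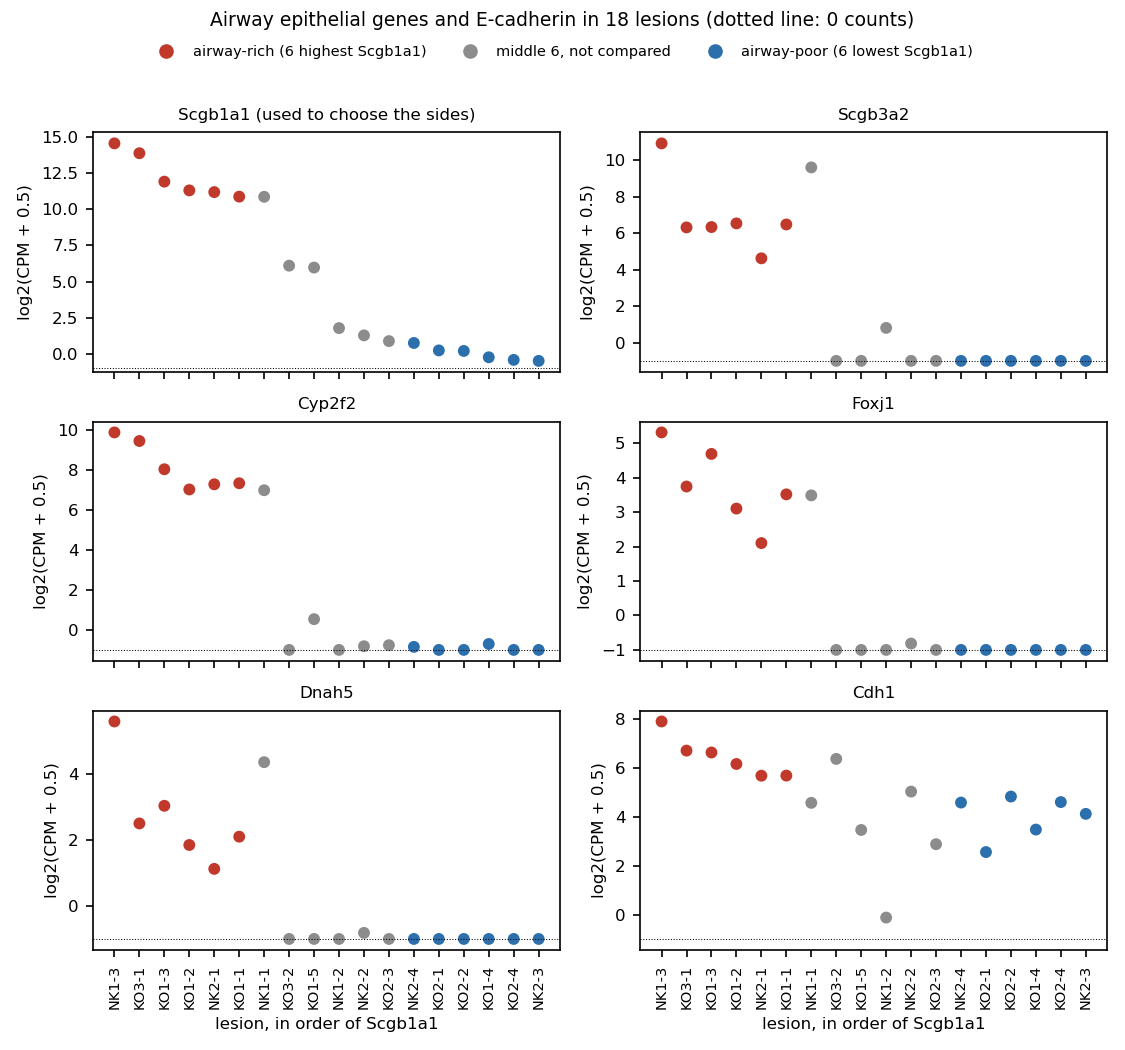
Level of 6 genes in each of the 18 lesions as log2(CPM + 0.5), with the lesions along the horizontal axis in order of Scgb1a1, which chose the sides. Red points are the 6 airway-rich, grey the 6 middle and blue the 6 airway-poor lesions. Scgb3a2, Foxj1 and Dnah5 lie on the line of 0 counts in all 6 airway-poor lesions and above it in all 6 airway-rich lesions and in NK1-1, whereas Cdh1 is present on both sides.

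The other airway markers followed Scgb1a1. Scgb3a2, the second main secretoglobin of the mouse airway, had 24.2 CPM in the lowest, 84.8 in the median and 1953 in the highest airway-rich lesion, and 0 counts in every airway-poor lesion. Cyp2f2, the cytochrome P450 typical of club cells (chromosome 7, 27119909 to 27133660), had 131 to 957 CPM with a median of 215 in airway-rich lesions, while the airway-poor lesions held 2 counts in all. Foxj1 (chromosome 11, 116330704 to 116335399) had 3.79 to 39.2 CPM with a median of 11.9 on the rich side and 0 counts on the poor side. For none of these genes did the sides overlap. Markers of both club and ciliated cells were thus present on the side labelled as rich, and at or near 0 on the other. Pooled over the 6 lesions of a side, Scgb3a2 was at least 2999-fold and Foxj1 at least 355-fold higher on the rich side, with the poor side set to a floor of 3 counts in total. Without NK1-3, which held 2442 of the 5674 counts of Scgb3a2, the bound for that gene was 1752-fold. The ratio for Cyp2f2 was 11423 with a 95% counting interval of 3162 to 94332, which covers counting error only.

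Across all genes, 13017 were tested and 72 were higher in airway-rich lesions at an adjusted p below 0.05 (edgeR quasi-likelihood test with the mouse in the model, Benjamini-Hochberg over all genes tested). That is 0.553% of the genes tested. None was lower (0%), and at an unadjusted p below 0.05 there were 502 higher and 153 lower genes. The sides did not overlap for 266 genes with all 6 airway-rich lesions above (2.04%) and for 41 genes with all 6 below (0.315%). Of the 72 genes, 26 belonged to the 5 lists of club cell and ciliated cell genes used here, 2 to other lists (Spint2 and Oasl1) and 44 to none. Over the 6 airway-poor lesions together, 15 of the 72 had 0 counts and another 15 had 1 to 3. The fitted fold changes of these genes rest on few or no counts on that side. An interaction of side with NK transfer could compare only mouse KO1 with mouse NK2, through KO1-4 and NK2-1, and so says nothing of NK transfer as such. It called 0 genes (edgeR quasi-likelihood test), with 625 at an unadjusted p below 0.05.

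Without the mouse in the model, 247 genes were higher (1.9%) and 2 were lower, the kinase gene Frk and the uroplakin gene Upk1b. Of the 72 genes, 66 were among those 247. Leaving out a single lesion changed the count strongly where that lesion carried the contrast of its mouse. It was 4 genes without KO1-4 and 9 without NK2-1, against 45 without NK1-3, 43 without NK2-3 and 44 without NK2-4. Without all lesions of NK2 it was 1, and among control mice alone 0. In each of these 7 fits all 72 genes still had a positive fold change, but its size moved. Without NK2-1 the fitted fold change was over 1.5 times larger for 48 of the 72 genes and over 1.5 times smaller for 5, and without KO1-4 it was larger for 5 and smaller for 32. It was larger for 14 genes without NK2-4 and for 7 without NK2-3. Leaving out KO1-1, KO1-2 or KO1-3 moved no gene's fold change that far. Nor did leaving out NK1-3, KO3-1, KO2-1, KO2-2 or KO2-4. The mice of these lesions had compared lesions on 1 side only. With the mouse in the model they could hardly move a fold change, so their part cannot be judged in this way.

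Products listed for club cells made up the first group. Of 20 secreted or surface products on this list, 9 had enough counts for the test, 3 of them only through the airway-rich side, and 5 rose. Over all genes tested 0.553% rose, the share to hold beside the counts for each list below. The lists were chosen with earlier results of these data known, so a higher share in a list is a description and no independent support. The median fitted log2 fold change of the 9 was 3.92, and that over all genes tested was 0.02. These medians are not a like comparison. Members that entered only through the rich side can hardly have a low value, and members low on both sides drop out. The share of such entries over all genes is not given here, and the same limit holds for the medians of the lists below. Hp, which encodes the haemoglobin-binding haptoglobin (chromosome 8, 109575128 to 109579172), had 193, 379 and 1208 CPM in the lowest, median and highest airway-rich lesion and 20.9, 42.0 and 79.4 in the airway-poor lesions. The sides did not overlap, and its log2 fold change was 3.30 ± 0.42 (SE, adjusted p = 0.0071). Wfdc2, a secreted protease inhibitor of airway epithelium, had 240 to 8168 CPM with a median of 555 on the rich side and 19.7 to 83.6 with a median of 44.2 on the poor side (log2 fold change 3.60 ± 0.51, adjusted p = 0.0083). The top of the rich range was NK1-3, and KO3-1 followed at 1145 CPM. Hp and Wfdc2 had counts in all 6 airway-poor lesions, where Scgb3a2 had 0, and which cells made them was not tested.

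Pigr, the receptor that carries polymeric antibodies across epithelium into the airway lining, had 7.15 to 55.2 CPM on the rich side and 2 counts on the poor side (ratio 917, counting interval 253 to 7577, adjusted p = 0.0215). The ratio was 466 without KO1-3, which held most of its counts. Gabrp, a GABA receptor subunit of epithelia, had 28.9 to 273 CPM with a median of 97.1 on the rich side and 0 counts on the poor side (at least 2463-fold higher, adjusted p = 0.0073). It was also at 0 in every middle lesion except NK1-1, where it had 84.4 CPM. Mucin and antimicrobial genes of the same list had few counts. Muc5b had 140 counts and Bpifb1 62 on the rich side and 0 on the poor side, and neither was tested. Retnla had 134 to 3502 CPM on the rich side and 0 to 7.97 on the poor side without passing the test (log2 fold change 8.25 ± 1.82, adjusted p = 0.108). It is also a known product of macrophages, whose other markers are given below.

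Enzymes listed for club cell metabolism made up the second group. Of 23 genes 20 were tested, 2 of them reaching the count minimum only on the rich side, and 6 rose. The median log2 fold change of the 20 was 1.80, and 17 values were positive. Besides Cyp2f2 the genes that rose included Ces1d, Cbr2, Aldh1a1 and Cyp2s1. Ces1d, a carboxylesterase (chromosome 8, 93166068 to 93197838), had 33.7, 51.3 and 904 CPM in the lowest, median and highest airway-rich lesion and 4.31, 6.99 and 11.2 in the airway-poor lesions. Its log2 fold change was 2.95 ± 0.24 (adjusted p = 0.00029), with counts in all 6 poor lesions. Cbr2, a carbonyl reductase of the lung, had 72.6 to 642 CPM against 3.21 to 10.2 (log2 fold change 4.04 ± 0.53, adjusted p = 0.0073). The value for Cbr2 was 2.91 without KO1-4 and 5.29 without NK2-1. Cbr2 also had counts in all 6 poor lesions, and which cells made Ces1d and Cbr2 was not tested. Aldh1a1, which oxidizes retinaldehyde, had 38.2 to 346 CPM against 2.86 to 20.01 (3.52 ± 0.46, adjusted p = 0.0073). The members of this group that did not pass include Nqo1 at −0.14 ± 0.65 and Gsto1 at −0.42 ± 0.64, enzymes that many cell types make.

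Ciliated cell genes made up the third group. Of 13 genes listed for ciliated cells, most but not all of them regulators of cell fate, 6 were tested. Of these, 2 were tested only through the rich side, and Foxj1 alone rose (adjusted p = 0.0174). Myb, a factor of the step before cilium growth, had 1.99 to 39.2 CPM against 0.17 to 0.57 (log2 fold change 4.02 ± 0.87, adjusted p = 0.102). The sides did not overlap for Myb, but it did not pass. The RFX factors had values on both sides. Rfx2 was at 7.12 to 58.4 against 3.66 to 9.51 CPM (1.38 ± 0.49, adjusted p = 0.666) and Rfx3 at 3.29 to 14.4 against 1.57 to 3.90 (0.35 ± 0.55, adjusted p = 1). Mcidas, Gmnc, Trp73 and Deup1, regulators of multiciliated cells, had 0 to 2 counts on the poor side each and were not tested. On the rich side they had 159, 17, 296 and 766 counts.

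Dynein arm genes encode the motors of the cilium. Of 22 members 10 were tested, 4 of these only through the rich side, and 4 rose, with a median log2 fold change of 5.04 over the 10. All 6 airway-rich lesions were above all 6 airway-poor lesions for 12 of the 22. Over all genes tested this share was 2.04%, but the 22 include members with too few counts for the test. Where the poor side is at or near 0, a few counts in each rich lesion are enough. Dnah5, an outer arm heavy chain (chromosome 15, 28203752 to 28472052), had 1.68, 4.49 and 48.0 CPM in the lowest, median and highest airway-rich lesion and 0 counts in the airway-poor lesions (at least 145-fold higher, adjusted p = 0.0434). Dnali1, an inner arm light intermediate chain, had 4.91 to 56.8 CPM against 0 counts (at least 338-fold higher, adjusted p = 0.0083). Dnah6 and Dnah10, inner arm heavy chains, had 3.37 to 214 CPM against 0 to 0.57 and 2.174 to 203 CPM against 0 to 0.86. Their log2 fold changes were 4.19 ± 0.68 (adjusted p = 0.0178) and 5.88 ± 1.05 (adjusted p = 0.0314), and that of Dnah10 was 9.40 without NK2-1 and 4.87 without KO1-4. The light chain genes Dnal1 and Dnal4 had values of 0.00 ± 1.10 and −0.13 ± 0.31 and overlapped between sides.

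Genes of the axoneme and its spokes and linkers were also among those that rose. Of 49 members 27 were tested, 13 of these only through the rich side, and 10 rose, with a median of 3.85. For 29 of the 49 every airway-rich lesion was above every airway-poor lesion, against 2.04% of all genes tested. The 49 again include members that were not tested. Rsph1, a radial spoke head protein (chromosome 17, 31255019 to 31277383), had 7.15, 23.03 and 215 CPM in the lowest, median and highest airway-rich lesion and 0 to 1.63 in the airway-poor lesions (log2 fold change 6.96 ± 1.13, adjusted p = 0.0178). Its log2 fold change was 10.68 without NK2-1 and 6.12 without KO1-4. Cfap65, a cilia and flagella associated protein, had 10.6 to 1743 CPM against 0 counts (at least 1915-fold higher, adjusted p = 0.0086). NK1-3 held 2180 of its counts, and without that lesion the bound was 782-fold. Cfap206 had 12.1 to 725 CPM against 1 count (ratio 4129, counting interval 740 to 163160, adjusted p = 0.0016), and Ccdc153 had 3.37 to 175 CPM against 1 count (ratio 1248, interval 223 to 49355, adjusted p = 0.0027). Ak7, Pifo, Ccdc40, Ccdc146, Cfap54 and 1110017D15Rik also rose. The list also holds tubulin genes that other cells use. Tubb4b was at 154 to 373 against 196 to 266 CPM (0.24 ± 0.23) and Tuba1a at 23.6 to 77.7 against 44.8 to 74.2 (−0.17 ± 0.39).

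Genes that build cilia of any kind were listed apart. The 33 cilium assembly genes include the transport particles needed for the single primary cilium of most cells. Of these genes 29 were tested, 0 passed in either direction and the median was 0.20. For 3 of the 33 every airway-rich lesion was above every airway-poor lesion, against 2.04% of all genes tested. The 33 include members that were not tested. Their summed level was 371 to 1467 CPM on the rich and 294 to 352 on the poor side, without overlap. Ift52, a core part of the transport particle, had 22.6 to 232 CPM on the rich and 54.2 to 75.8 on the poor side (0.18 ± 0.25, adjusted p = 1). Wdr35, of the returning particle, had 29.0 to 50.5 against 18.4 to 55.2 CPM (0.08 ± 0.36, adjusted p = 1). Within the list, the dynein assembly factor Dnaaf1, which serves motile cilia, had 0.84 to 24.0 CPM against 0 counts without passing (adjusted p = 0.123). The list of 22 dynein arm genes and this list of 33 thus had different counts of genes past the test, 4 and 0, and the difference between lists was not tested.

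**Figure D2:**
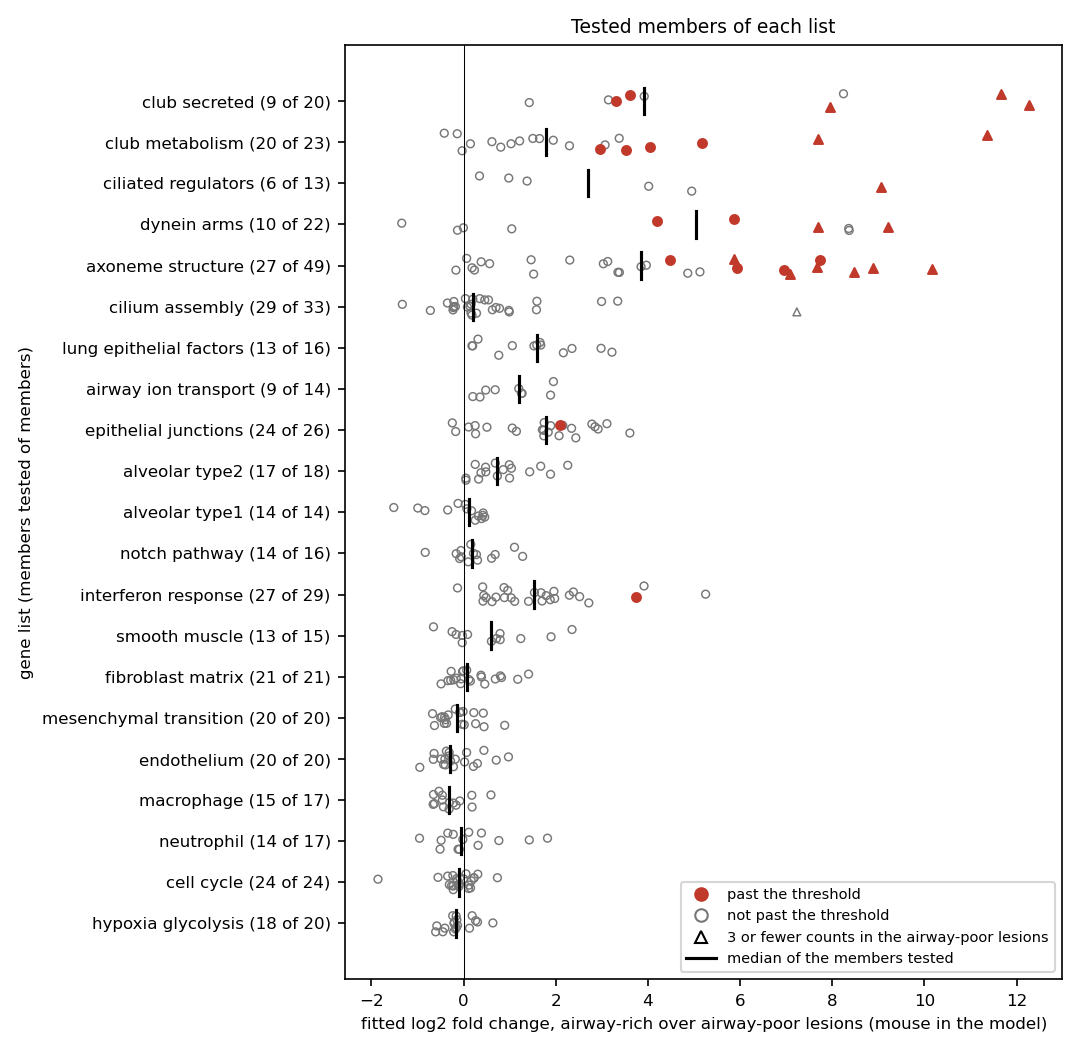
Fitted log2 fold change of each tested member of 21 gene lists, airway-rich over airway-poor lesions with the mouse in the model. Filled red symbols passed the test, triangles mark genes with 3 or fewer counts in the airway-poor lesions, whose fitted value depends on the prior count, and the black bar is the median of the members tested. Club cell, dynein arm and axoneme genes lie to the right with medians of 1.80 to 5.04. Epithelial junction, lung epithelial factor, interferon and airway ion transport lists also had positive medians, of 1.79, 1.59, 1.54 and 1.2. Cilium assembly, alveolar, stromal and cell cycle lists centre between −0.31 and 0.73.

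Many promoters of motile cilium genes carry an X-box, the palindromic site bound by RFX factors, and the stretches below show it before a RefSeq start of 4 genes of the dynein arm and axoneme lists, of which 1110017D15Rik and Pifo rose. Each line reads 5′ to 3′ on the strand of the gene (the minus strand in all 4) and ends before that start, with the pair of half-sites and the bases between them in capitals. Sequences are from RefSeq on GRCm38.p6.
1110017D15Rik: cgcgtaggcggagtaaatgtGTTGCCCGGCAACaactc
Pifo: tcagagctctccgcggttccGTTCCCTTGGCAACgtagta
Ccdc151: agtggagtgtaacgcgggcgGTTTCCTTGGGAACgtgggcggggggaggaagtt
Fam183b: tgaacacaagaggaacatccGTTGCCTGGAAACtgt
The stretches lie at chr4:41507765-41507802 for 1110017D15Rik, chr3:106001498-106001537 for Pifo, chr9:22002635-22002688 for Ccdc151 and chr11:58801961-58801996 for Fam183b. The last base of the pair lay 6 bases before the start for 1110017D15Rik and 7 before that for Pifo. For these genes this was 1 of 2 RefSeq starts in the table, and it lay inside the gene, 9569 and 13149 bases from its 5′ end in the annotation of the counts. For Ccdc151 and Fam183b the start was the 5′ end of the gene.

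The search took GTTNCC followed after 0 to 3 bases by GGNAAC, a pattern that is its own reverse complement and so covers both strands, in windows of 250 bases before to 50 after each start. It was found in 4 of 67 windows of the dynein arm and axoneme lists (5.97%), for 59 of whose 71 genes the table had a window. Over all promoters it was found in 264 of 32851 windows (0.804%), and in 0 of 36 windows of the club cell lists. The single half-site GTTGCC on either strand, which overlaps the pair where a piece of it has that form, was in 40.3% of the cilium windows, 12.5% of all windows and 5.56% of the club cell windows. Of the 14 cilium genes that rose, 10 had a window and 2 of them held the pair. These are matches of letters and not measured binding.

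Of the 44 genes outside the lists, those with the smallest p included Cdhr3, Kif9, Fam47e and Fam92b. Cdhr3, a cadherin-related protein of ciliated cells (chromosome 12, 33033796 to 33092875), had 14.1, 37.8 and 469 CPM in the lowest, median and highest airway-rich lesion and 0 counts on the poor side (at least 1186-fold higher, adjusted p = 0.0014). Kif9, a kinesin of motile cilia and flagella, had 4.18 to 101 CPM against 0.21 to 1.60 (log2 fold change 4.68 ± 0.57, adjusted p = 0.0068). Fam47e and Fam92b each had 1 count on the poor side and rose with adjusted p of 0.0068 and 0.0071. Named after their values were seen, Gpx2, a glutathione peroxidase, had 9.49 to 146 CPM against 0 to 0.62 (5.24 ± 0.69, adjusted p = 0.0073). Pon1, a paraoxonase that hydrolyses lactones and toxic esters, had 7.12 to 300 CPM against 0.14 to 5.81 (5.04 ± 0.68, adjusted p = 0.0080). The sides did not overlap for either.

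For 7 of the 72 genes the sides did overlap: Chn2, Cldn10, Gabre, Arhgdig, Dbp, Oasl1 and 2010300C02Rik. The clock-controlled factor Dbp had 5.28 to 28.8 CPM on the rich and 1.82 to 35.4 on the poor side. Its pooled ratio was 1.01 (counting interval 0.920 to 1.12) although the fit with the mouse gave a log2 fold change of 2.61 ± 0.49 (adjusted p = 0.0428). Within KO1 it had 5.28 to 11.9 CPM in the 3 airway-rich lesions against 2.29 in KO1-4, and within NK2 it had 21.1 against 1.82 and 2.07. Oasl1, an interferon-induced gene, had 1.72 to 13.1 against 0.23 to 18.5 CPM, with a fitted value of 3.75 ± 0.71 (adjusted p = 0.0445) and a pooled ratio of 1.24 (1.06 to 1.45), which was 0.658 without NK2-1. Both genes were highest on the poor side in mouse KO2, which has no airway-rich lesion.

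**Figure D3:**
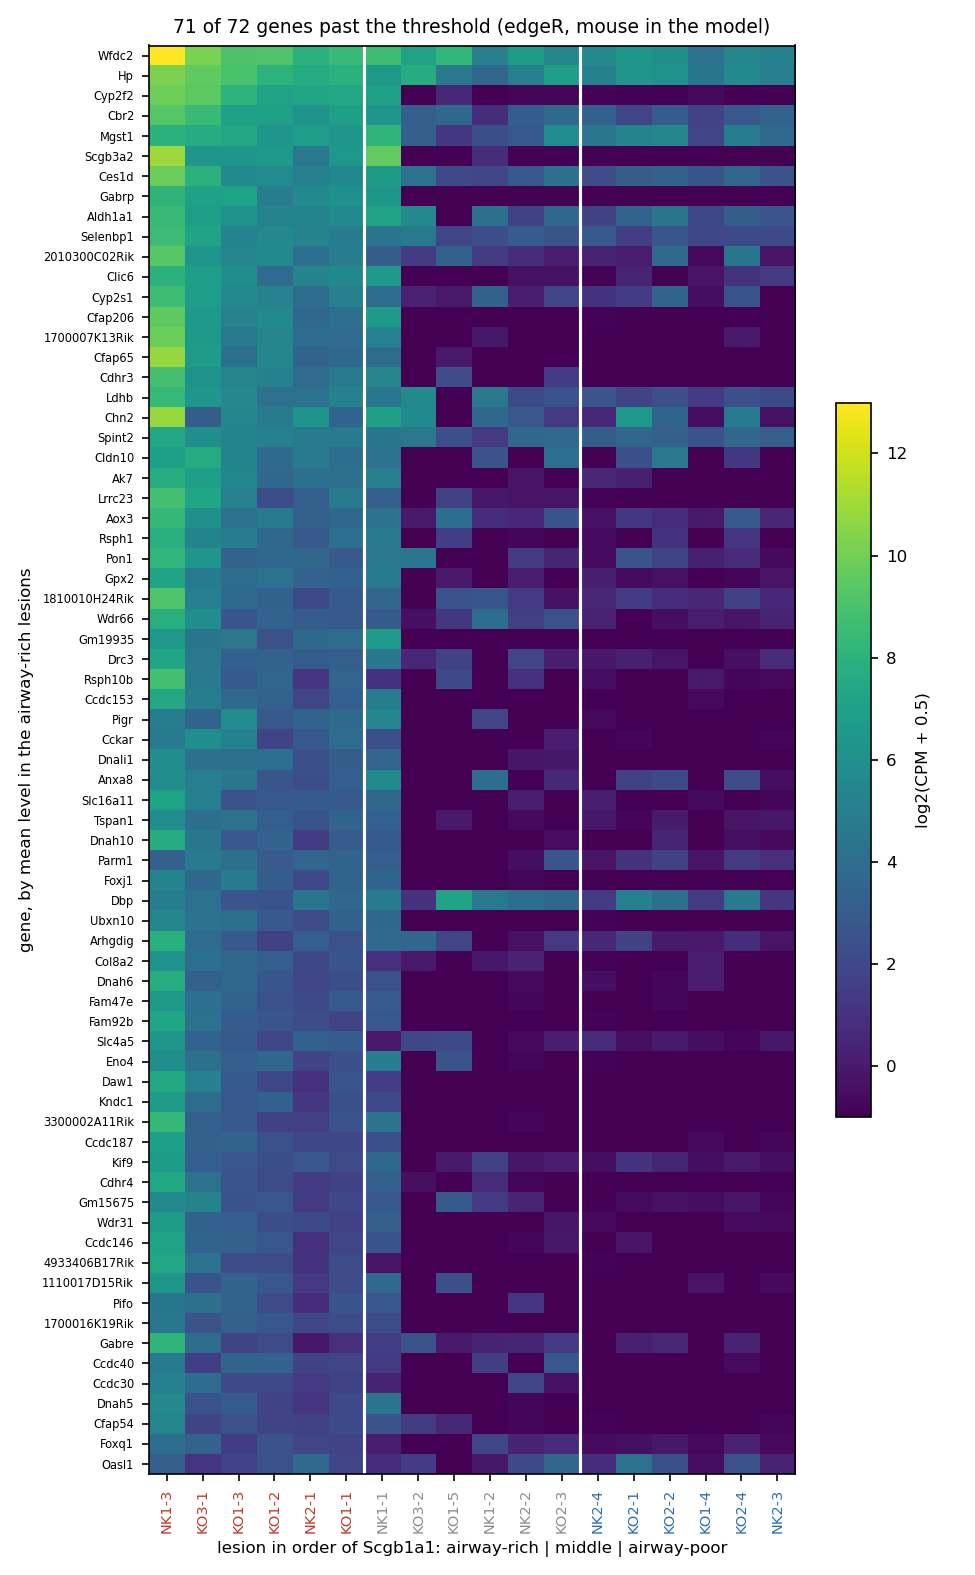
Level of 71 of the 72 genes past the test in each lesion as log2(CPM + 0.5), genes in rows by their mean level in the airway-rich lesions and lesions in columns in order of Scgb1a1. The white lines separate the airway-rich, middle and airway-poor lesions. NK1-1, the first of the middle lesions, resembles the airway-rich lesions in colour, with 66 of the 72 genes above every airway-poor lesion.

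The middle lesions were ranked by the same Scgb1a1 values and were not compared as a side. NK1-1 stood next to the upper limit, so its values are a description and no outside support. In NK1-1, 66 of the 72 genes were above every airway-poor lesion, against 28.4% of all genes tested. In the other 5 middle lesions the number was 12 to 19 of 72, against 13.9% to 28.3% of all genes. NK1-1 had 783 CPM of Scgb3a2, 128 of Cyp2f2 and 10.7 of Foxj1. KO3-2 and KO1-5, which still had 68.2 and 62.2 CPM of Scgb1a1, had 0 counts of Scgb3a2 and Foxj1, and 0 and 0.96 CPM of Cyp2f2. Within mouse KO1, 72 of 72 genes were higher in all 3 airway-rich lesions than in KO1-4 (24.7% of all genes), and within NK2, 72 of 72 were higher in NK2-1 than in both airway-poor lesions (37.0%). These within-mouse comparisons are the ones the fit used and add nothing independent to it. NK1-3 had the highest level of all 18 lesions for 64 of the 72 genes, against 16.96% of all genes tested.

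Other epithelial genes were also compared. Of 26 junction and keratin genes 24 were tested, and 1 rose. Spint2, a membrane inhibitor of epithelial serine proteases (chromosome 7, 29256323 to 29281912), had 25.7, 37.3 and 174 CPM in the lowest, median and highest airway-rich lesion and 5.495, 9.15 and 11.8 in the airway-poor lesions (log2 fold change 2.10 ± 0.33, adjusted p = 0.0152). The median of the list was 1.79 and 22 of 24 values were positive, against 6743 of 13017 over all genes tested. Without mouse KO1 the median was 0.76. For 8 of 26 members every airway-rich lesion was above every airway-poor lesion, against 2.04% of all genes tested. Among these, named after their values were seen, was E-cadherin, Cdh1, at 50.9 to 239 against 5.39 to 27.9 CPM (2.07 ± 0.61, adjusted p = 0.375). Epcam was at 14.2 to 104 against 2.69 to 9.08 CPM (1.74 ± 0.49, adjusted p = 0.319). Neither passed the test, and both are made by airway cells as well as by many carcinoma cells. Vim, the mesenchymal filament that AT3 lesions had in quantity, was at 1395 ± 655 CPM (SD, n = 6) against 1850 ± 355 (−0.33 ± 0.24, adjusted p = 1). The basal keratins Krt5, Krt14 and Krt17 had 0 counts in all 12 lesions.

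Transcription factors of lung epithelium and airway ion transport genes had 0 members past the test, of 13 and 9 tested, with medians of 1.59 and 1.2. All 13 and all 9 values were positive, against 6743 of 13017 over all genes tested. Without mouse KO1 the medians were 0.51 and 0.55. The lung lineage factor Nkx2-1 was at 5.89 to 54.4 against 0.69 to 3.70 CPM (2.35 ± 0.62, adjusted p = 0.259), and Sox9 at 12.8 to 34.5 against 13.97 to 41.4 CPM (0.31 ± 0.42, adjusted p = 1). Ano1, a chloride channel also known from breast carcinoma, was at 201 to 338 against 201 to 416 CPM (0.20 ± 0.25, adjusted p = 1). Basal, goblet and neuroendocrine airway cells were hardly represented. Their summed levels were 1.61 to 19.2, 1.86 to 19.6 and 2.49 to 15.2 CPM on the rich side and 0.505 to 2.44, 4.03 to 6.99 and 0.41 to 9.43 CPM on the poor side.

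Alveolar epithelium was present on both sides. Of 18 genes of surfactant-producing type 2 cells 17 were tested and 0 passed, with a median of 0.73. All 17 values were positive, against 6743 of 13017 over all genes tested. The 17 values come from the same lesions and are not independent of each other. For 3 of 18 members every airway-rich lesion was above every airway-poor lesion (2.04% of all genes tested). The median stayed positive in the other settings, at 0.155 to 1.52. The lowest value came without KO1-4, the single airway-poor lesion of mouse KO1. Summed levels were 1881 to 5629 CPM on the rich and 1216 to 2562 on the poor side. Sftpc, surfactant protein C, was at 484 ± 294 CPM against 618 ± 176 (0.48 ± 0.43, adjusted p = 1), and Sftpa1 at 362 ± 131 against 215 ± 103 (1.04 ± 0.49, adjusted p = 1). The means of Sftpc were in the order opposite to its fitted value, which was negative in 4 of 17 other settings. Sftpb, named after its values were seen, was at 212 to 1684 against 47.0 to 166 CPM without overlap (1.67 ± 0.71, adjusted p = 0.916). Surfactant protein B is made by club cells as well as by type 2 cells. Of 14 type 1 cell genes all were tested and 0 passed, with a median of 0.12, whose sign depended on the fit.

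**Figure D4:**
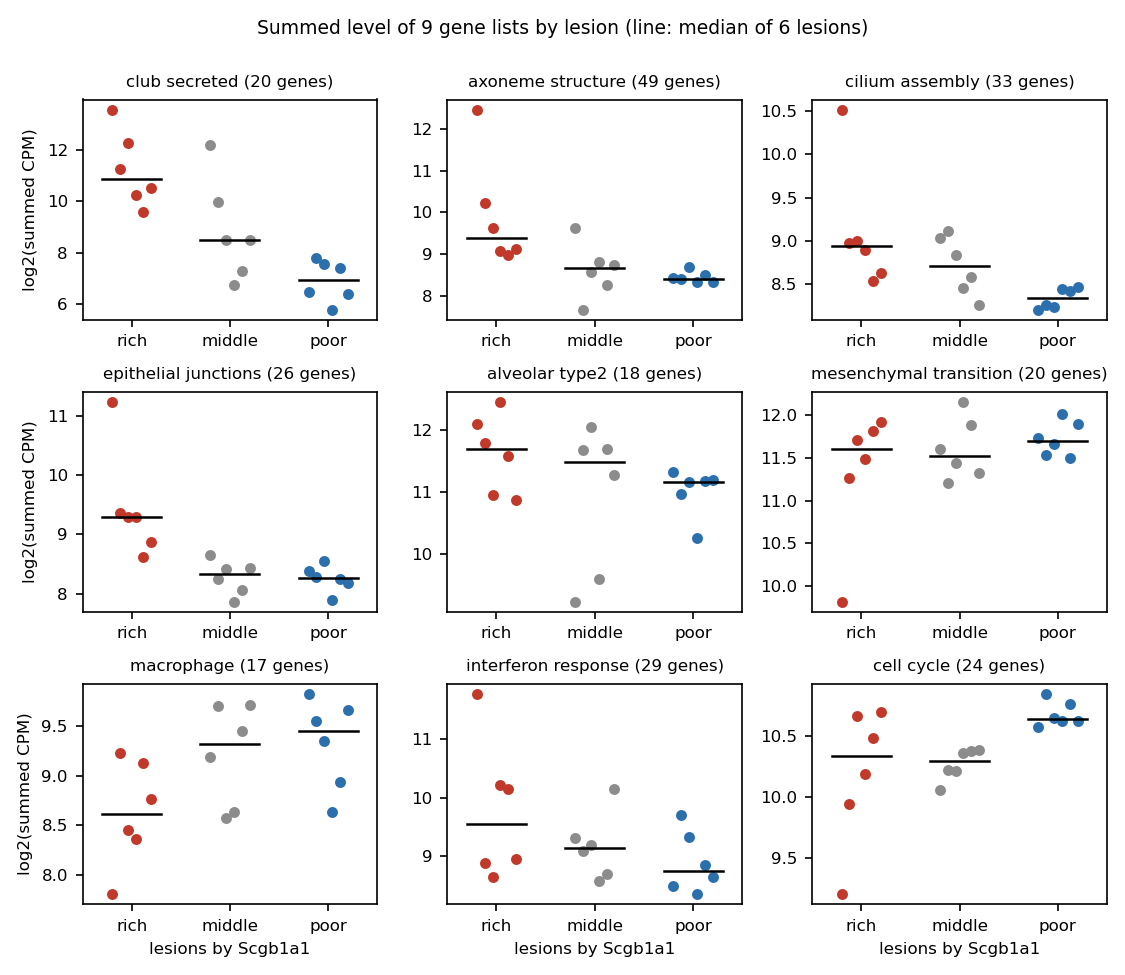
Summed level of 9 gene lists in each lesion as log2(summed CPM), by side, with the median of 6 lesions as a line. The sums of club cell, axoneme, cilium assembly and epithelial junction genes do not overlap between rich and poor lesions, those of alveolar type 2, mesenchymal, macrophage, interferon and cell cycle genes do.

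Markers of other cells were given the same summary, with 0 members past the test in each list. The median log2 fold change was −0.31 for macrophages (15 tested), −0.30 for endothelium (20), 0.07 for fibroblasts and matrix (21), −0.13 for mesenchymal genes (20), 0.60 for smooth muscle (13) and −0.05 for neutrophils (14). Summed macrophage genes ran from 224 to 600 CPM on the rich and from 398 to 907 on the poor side. The macrophage gene C1qc was at 50.4 ± 30.1 against 109 ± 34.1 CPM (−0.66 ± 0.40, adjusted p = 1). Cell cycle genes summed to 589 to 1654 against 1522 to 1835 CPM, with a median of −0.09 over 24 genes. NK1-3 had the lowest macrophage, mesenchymal and cell cycle sums of the 18 lesions. NK cell genes summed to 6.40 to 40.7 CPM against 8.24 to 49.9. The sign of the median changed in at least 1 other fit for the fibroblast, mesenchymal, neutrophil and cell cycle lists. The part of these cells in the airway differences was not tested.

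For interferon-induced genes the sides overlapped for each of the 29 members. Of 27 tested, Oasl1 passed, 26 values were positive and the median was 1.54. Without the mouse term and the lesions over 40% mt-Rnr2, the median was 0.33 and the value of Oasl1 0.06. Oasl1 did not pass in 8 of 17 other settings or in 11 of 17 that left out a lesion or a mouse. Their sum was 399, 816 and 3476 CPM in the lowest, median and highest airway-rich lesion and 328, 432 and 831 in the airway-poor lesions. Mx1, an antiviral GTPase named after its values were seen, was at 9.03 to 310 against 1.95 to 16.7 CPM (5.25 ± 1.06, adjusted p = 0.0661). The sum was highest in NK1-3 at 3476 CPM, followed by KO1-2 at 1191 and NK2-1 at 1135, while KO3-1 and KO1-3, which came next to NK1-3 in Scgb1a1, had 472 and 399.

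No gene passed as lower. The lower genes with the smallest p were Tyms, Casp8, Tma16, Gpsm3, Zfp775, Nup155, Malt1, Mgl2, Nr2f2 and Zfp275, with adjusted p of 0.150 to 0.357. Tyms, the thymidylate synthase of DNA synthesis, was at 8.0 to 34.5 CPM on the rich and 14.6 to 103 on the poor side (−1.86 ± 0.44, adjusted p = 0.150), and the sides overlapped. Tma16, a ribosome-associated protein, was at 4.80 to 43.8 against 47.7 to 93.2 CPM without overlap (−0.95 ± 0.24, adjusted p = 0.202). Mgl2, a lectin of macrophages and dendritic cells, had means of 95.9 ± 176 and 85.1 ± 39.0 CPM, in the order opposite to its fitted value of −1.95 ± 0.56 (adjusted p = 0.343).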

How the data were processed

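RNA of 18 lesions from 5 mice was analysed. The submitters' processing notes name mm10 with bcl2fastq 2.17, STAR, DESeq2 and RSEM 1.2.28. Whether reads were counted by strand is not stated there. The deposited gene table holds expected counts, 93.1% of them whole, and they were rounded to whole numbers. The deposited normalized table holds log2 values, which their range shows, and how the authors transformed them is not stated. It ranked the lesions by Scgb1a1 and served as an alternative. A deposited annotation table gives animal numbers, which match the mice of the titles. Of 49585 gene identifiers 49326 matched a symbol, and coordinates are those of GENCODE M21 on GRCm38.

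The test between sides was edgeR's quasi-likelihood F test (version 4.0.16, robust, under R 4.3.3), with the mouse as a fixed block because lesions of a mouse share an animal, TMM factors over all 18 lesions and the filter filterByExpr (minimum count 10, minimum total 15), which kept 13018 genes. Scgb1a1 was left out, and Benjamini-Hochberg adjustment ran over 13017 genes with a threshold of 0.05. Residual degrees of freedom were 6 and the common coefficient of variation was 43.3%. The standard error is the log2 fold change divided by the square root of F. Fitted values describe differences within mice, so they can differ from ratios of the pooled counts, and those of genes with 0 to 3 counts on a side depend on the prior count. Alternatives used DESeq2 1.42.0 and limma 3.58.1. Only the main edgeR fit was run on simulated counts, which carried no mouse effect and so say nothing of the block by mouse. The deviations of lesions of the same mouse on opposite sides had a median correlation of 0.05 (−0.06 to 0.15, 5 pairs), against −0.01 for 31 pairs of different mice, and the pairing comes from the animals named in the titles.

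The members and the 35 gene lists (604 of 605 entries matched) were chosen with earlier results of these data known. Named genes were, in each direction, the 10 with the smallest p, then from every list as many as 4 members that passed, or else the 2 with the highest mean count, and the markers Scgb3a2, Cyp2f2 and Foxj1. Of the genes past the threshold, 1 is not reported here. All other genes given with values were named after their values were seen. Intervals and floors cover counting error only. Pooled ratios without a single airway-rich lesion were added after seeing the data. Genes that overlap on opposite strands, and members of families with near-identical copies, are uncertain.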

Additional observations from a re-analysis of the deposited data

Results flagged for a closer look

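The summed level of each list, as log2(summed CPM + 0.5), was screened on each side for a lesion that lay far from the other 5. Of 76 groups screened, 35 lists and 3 library measures on each side, 12 had such a lesion, where chance gives about 1 in 20. NK1-3, the shallowest library, stood apart on the airway-rich side in 9 of them. It was high for axoneme genes (12.46, next 10.23), cilium assembly (10.52, next 9.001), epithelial junctions (11.23, next 9.36), Notch pathway (9.917, next 8.86) and cardiac muscle genes (6.531, next 3.35). It was low for mesenchymal genes (9.818, next 11.27), hypoxia and glycolysis genes (9.674, next 10.82), lymphatic genes (1.536, next 4.70) and mast cell genes (−1.0, that is 0 counts, next 2.68).

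Among airway-poor lesions, KO1-4 was low for lung epithelial factors (6.173, next 7.09) and alveolar type 2 genes (10.25, next 10.97). It is the lesion on which the contrast within mouse KO1 rests. KO3-1 was high among airway-rich lesions for neutrophil genes (10.78, next 8.78). What these departures come from was not tested.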

How the results depend on the processing

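The count of genes past the threshold depended on the model, and in each setting with any call more genes were higher than lower. The 72 higher and 0 lower genes became 345 and 31 with DESeq2, 222 and 5 with DESeq2 on the genes of the edgeR filter, 436 and 27 with no filter on low counts, 112 and 2 with counts summed per mouse and side, 126 higher with the mouse as a random block, 221 higher with NK transfer in place of the mouse, 25 higher with all 18 lesions in the fit and 0 higher in control mice alone. With no replicate block, so that lesions were not paired by mouse, the counts were 247 and 2. Added after seeing the data, leaving out the lesions with over 40% of counts on mt-Rnr2 gave 43 higher, and doing so without the mouse term 173 and 1. Leaving out single lesions or mice gave 1 to 77 higher and 0 lower genes. The low counts came without NK2 (1), KO1-4 (4), NK2-1 (9) and KO1 (11), and without NK1-3 (45), NK2-3 (43) and NK2-4 (44). Without NK2, KO1, KO1-4 or NK2-1, only 1 mouse has lesions on both sides. NK1-3 was the only lesion of its mouse among the 12 compared, so with the mouse in the model it does not inform the difference between sides. Why the count fell without NK1-3, NK2-3 or NK2-4 was not tested. All 72 genes had a positive value in every setting but these: with 10 counts in at least 6 lesions 71 had a value, all positive, and without the high mt-Rnr2 lesions and mouse term 71 of 72 were positive. The interaction of side with NK transfer, which compares KO1 with NK2 only, gave 0 genes in each setting run except 76 with no filter. The difference in mt-Rnr2 share was 15.8 percentage points and 11.2 to 20.1 over leave-one-out settings, with an adjusted p under the threshold only without NK2-1 (20.1). Library depth limits genes under about 10 counts in a lesion, which includes many dynein and mucin genes.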
